A study of Drosophila melanogaster with 21 samples.

Results

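Brains of female Drosophila melanogaster carrying mutant allele 1 of CG11247 (Saft) were compared with brains of the wild-type parent strain. Libraries were chosen by tissue and genotype, which gave 2 mutant 1 and 2 wild-type brain libraries, 4 of the 21 libraries of the series. Mutant 1 has a CRISPR-Cas9 deletion of 1 base in exon 1 that shifts the reading frame. Wild type is the isogenised white strain in which the allele was made. Whether the strains differ at other loci was not tested. Each library pooled 40 brains of mated females 3 to 4 days old, and ribosomal RNA was depleted before sequencing. The labels list the mutant stock over the TM3,Sb balancer, and no source used here says if the dissected females were homozygous. Brains of mutant 2, an allele with 2 bases deleted in exon 2 (2 libraries), and ovaries of mutant 1 and wild type (3 libraries each) were used only where named.

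CG11247 (FBgn0037120) encodes a zinc-finger protein that the study describes as a transcription factor. Many genes that differed in the mutant brains are best known from surface epithelia. Fly epidermis and trachea secrete an apical matrix of chitin, chitin-binding proteins, zona pellucida domain proteins and lipids, and the transcription factor Grainyhead is a conserved regulator of such epithelia. The adult brain consists mainly of neurons and glia. It is wrapped in a basement membrane, a sheet of collagen IV, laminin and perlecan, to which blood cells (hemocytes) and fat body contribute.

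The alleles are shown because they define the groups. Each line gives the bases on both sides of a deletion as the labels record them, and the capitals mark the pair of bases that the deletion joined.

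mutant 1: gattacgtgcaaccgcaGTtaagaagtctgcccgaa

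mutant 2: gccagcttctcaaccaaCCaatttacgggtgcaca

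In build BDGP6, CG11247 occupies positions 21724326 to 21728806 of arm 3L and is read from the minus strand. Its level was 66.4 and 65.4 CPM (TMM-scaled counts per M counts) in mutant 1 brains, against 85.9 and 89.7 CPM in wild-type brains. Both mutant libraries were thus below both wild-type libraries (log2 -0.41 ± 0.06, edgeR adjusted p = 0.00394; a value after ± beside a log2 change is its SE). The call was lost without mutant 1 library 1 or wild-type library 2 (edgeR adjusted p = 0.0511 each). A frame shift need not change the mRNA level, so the level is no check of the protein.

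The 4 libraries held 41.1 to 43.4 M counts, and 1 count was worth 0.0223 to 0.0254 CPM over all 6 brain libraries. The principal component with the most variance (54.6%) set wild type (33.5 and 34.1) apart from all mutant libraries (-19.9 to -13). The next component (15.1%) separated library 1 from library 2 in mutant 1 (16.8 and -10.7) and in wild type (15.3 and -14.2). The labels do not say that replicate pools were dissected separately, so a p-value reflects only how much these libraries vary. In whole brains, fewer cells of a type and less RNA per cell cannot be told apart.

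Of 9880 genes tested, 263 (2.66%) were called at an edgeR adjusted p under 0.05, 188 higher (1.9%) and 75 lower (0.759%) in mutant 1. The higher genes were mostly weakly expressed in wild type and changed by a large factor. Of the 188, 123 were at least 2-fold higher, and wild-type means were under 0.5 CPM in 52 and 0.5 to 5 CPM in 71. The lower genes were mostly well expressed and changed less. Of the 75, 18 were at least 2-fold lower, and wild-type means were 5 to 50 CPM in 28 and 50 CPM or more in 33. The median log2 change was 1.6 over the higher genes and -0.60 over the lower genes, beside -0.00017 over all tested genes.

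**Figure D1:**
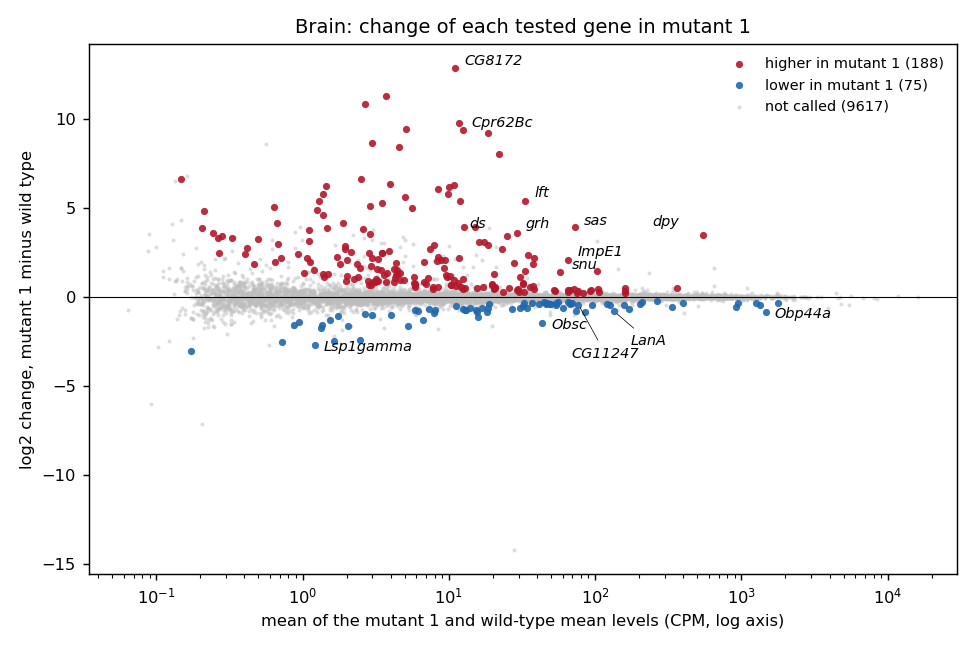
Log2 change (mutant 1 minus wild type) of the 9880 tested genes against their mean level in CPM (log axis), with 188 higher genes in red, 75 lower genes in blue and all others in grey. Large increases sit at low and middle levels and the lower genes stay closer to 0; fitted changes of genes with 0 counts in a group depend on the prior count of the fit.

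The counts depended on single libraries. Without mutant 1 library 1 there were 149 calls (125 higher and 24 lower), and without wild-type library 2 there were 172 (119 higher and 53 lower). Lower calls numbered 27 without mutant 1 library 2 and 35 without wild-type library 1. They numbered 122 and 120 without mutant 2 library 1 or library 2, which only share the fit. When each of the 6 brain libraries was left out in turn, 100 of the 188 higher genes and 16 of the 75 lower genes were called every time. Exons of 69 called genes overlap another gene, on the other strand in 63, and no source used here states if the counting was stranded. Levels are therefore uncertain for exp, rtv, f, Sb, Dlish, ds, grh, ovo, sas, Tep3, spz4, Gnmt, Myo10A, IRSp53, Cyp6g1, Cyp301a1, sut1, Cht6, baz, stl, CG8192, CG18641, CG13875, SPR, nAChRbeta3, Obp44a, NimC2 and trol, all named below.

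Genes of epithelial surfaces made up the block with the most calls in a single direction. The 8 lists of this kind (chitin, Cpr cuticle proteins, cuticle lipids, zona pellucida domain proteins, trichomes and bristles, tracheal matrix, Fat-Dachsous and planar polarity, other cadherins) held 107 tested genes, of which 28 rose and 0 fell (0 lower by DESeq2 and 0 lower at an unadjusted p under 0.05 too). That is 26.2%, beside 2.66% of all tested genes, and 24 of the 28 were called without each library in turn. The lists were joined after their values were seen. They have 177 members, and those outside the 107 did not pass the filter on low counts. Members at or near 0 in wild type, such as Cpr56F, passed it through mutant libraries only and could not have been called lower. The 26.2% and the 0 lower calls thus depend in part on the filter. Most other tested members were expressed at similar levels in both genotypes, and the median log2 change over the 107 was 0.10.

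Chitin is the polysaccharide scaffold of cuticle and tracheal lining. Of 24 tested genes of chitin synthesis and deposition, 5 rose and 0 fell (median log2 change 0.09). exp and reb are neighbouring genes for related proteins needed for chitin deposition. exp had 21.7 and 18.1 CPM in mutant 1 and 0.278 and 0.250 CPM in wild type (log2 6.22 ± 0.16, edgeR adjusted p = 4.65e-08). reb had 7.95 and 7.73 CPM in mutant 1 and 0.0927 and 0.0910 CPM in wild type (6.37 ± 0.18, edgeR adjusted p = 7.56e-08). rtv, which encodes a membrane-anchored organiser of chitin fibres, had 23.4 and 23.2 CPM in mutant 1 and 0.556 and 0.523 CPM in wild type (5.42 ± 0.12, edgeR adjusted p = 3.27e-08). In these 3 genes both wild-type libraries were under 1 CPM and the mutant libraries lay close together far above them.

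Chitinases, which cut chitin, gave 2 calls. Cht7 had 7.48 and 6.11 CPM in mutant 1 and 0.209 and 0.137 CPM in wild type (log2 5.28 ± 0.23, edgeR adjusted p = 1.59e-06). Cht6 moved little, with 34.6 and 32.4 CPM in mutant 1 and 25.0 and 25.0 CPM in wild type (0.42 ± 0.06, edgeR adjusted p = 0.00572). Its call was lost without mutant 1 library 1 (edgeR adjusted p = 0.0719), wild-type library 1 (0.0657) or wild-type library 2 (0.0763). The gene for the chitin synthase itself, kkv, had 1.16 and 0.676 CPM in mutant 1 and 0.464 and 0.569 CPM in wild type and did not pass (edgeR adjusted p = 0.688). knk, whose product acts with that of rtv in chitin organisation, had 0.442 and 0.411 CPM in mutant 1 and 0.464 and 0.432 CPM in wild type. mmy, which makes the sugar donor for chitin, had 96.5 and 101 CPM in mutant 1 and 94.7 and 91.5 CPM in wild type. The increases thus covered deposition factors and 2 chitinases, while the synthase, precursor enzyme and knk genes did not pass the test.

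Cpr proteins are structural cuticle proteins that bind chitin. Of 70 Cpr genes 17 passed the filter on low counts, and 4 rose and 0 fell. Cpr62Bc had 22.6 and 27.2 CPM in mutant 1 and 0.0232 and 0.0455 CPM in wild type, a ratio of summed counts of 721 (95% exact counting interval 246 to 3500, edgeR adjusted p = 3.78e-08). Cpr56F had 7.95 and 6.88 CPM in mutant 1 and 0 counts in wild type, which makes it at least 216-fold higher against a floor of 3 counts over the group (edgeR adjusted p = 1.58e-06). Both were thus close to absent from wild-type brain libraries. Cpr47Ef was already present in wild type, with 13.7 and 14.1 CPM in mutant 1 and 2.30 and 3.39 CPM in wild type (log2 2.29 ± 0.18, edgeR adjusted p = 0.000364). Cpr62Ba stayed under 1 CPM, with 0.906 and 0.555 CPM in mutant 1 and 0.116 and 0.0910 CPM in wild type (2.79 ± 0.43, edgeR adjusted p = 0.00904), and its call was lost without mutant 1 library 1 (0.082), wild-type library 1 (0.0615) or wild-type library 2 (0.0984). The other 13 tested members were not called, among them Cpr62Bb with 10.0 and 8.48 CPM in mutant 1 and 11.1 and 8.53 CPM in wild type. Of 16 tested genes of Twdl and other cuticle families 0 were called, beside 2.66% of all tested genes.

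Genes of the waxy barrier on the cuticle gave 3 higher calls among 6 tested. snu, an ABC transporter gene of that barrier, had 84.0 and 84.5 CPM in mutant 1 and 32.2 and 29.6 CPM in wild type (log2 1.45 ± 0.07, edgeR adjusted p = 2.34e-06). slf, which encodes a matrix protein that acts with it, had 8.71 and 5.02 CPM in mutant 1 and 1.46 and 2.14 CPM in wild type (1.93 ± 0.30, edgeR adjusted p = 0.0271). The call of slf was lost without wild-type library 1 (0.141), wild-type library 2 (0.0615), mutant 2 library 1 (0.175) or mutant 2 library 2 (0.17), and with only the 2 groups compared (0.169). Elovl7, a fatty acid elongase gene by name, had 5.41 and 4.32 CPM in mutant 1 and 1.25 and 2.00 CPM in wild type (1.58 ± 0.22, edgeR adjusted p = 0.0059). Cyp4g15, a P450 gene expressed in brain, was alike in both genotypes at 213 and 204 CPM in mutant 1 and 242 and 198 CPM in wild type.

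Zona pellucida domain proteins link the apical cell surface to the matrix. Of 8 tested, 4 rose and 0 fell (median log2 change 1.9). Over left-out libraries the median ran from 0.22 (9 tested, without mutant 2 library 2) to 2.8 (9 tested, without mutant 1 library 1). dpy, which encodes the giant matrix fibre Dumpy, was the most abundant called surface gene, with 1021 and 973 CPM in mutant 1 and 100.2 and 77.1 CPM in wild type (log2 3.49 ± 0.13, edgeR adjusted p = 2.05e-05). qsm, also known for a role in light input to the clock, had 28.7 and 28.4 CPM in mutant 1 and 1.79 and 1.84 CPM in wild type (3.98 ± 0.08, edgeR adjusted p = 1.56e-08). These genes were present in wild-type brain, whereas nyo and dyl were at its limit of detection. nyo had 3.23 and 2.49 CPM in mutant 1 and 0.0464 and 0.0227 CPM in wild type (ratio 83.2, counting interval 28.1 to 406, edgeR adjusted p = 1.52e-05). dyl, needed for bristle and hair shape, had 1.42 and 1.06 CPM in mutant 1 and 0 and 0.0683 CPM in wild type (ratio 36.1, 12 to 178, edgeR adjusted p = 0.00179). pot had 15.7 and 17.3 CPM in mutant 1 and 16.9 and 17.7 CPM in wild type, and tyn had 33.6 and 38 CPM in mutant 1 and 34.0 and 32.9 CPM in wild type. Neither passed the test (edgeR adjusted p = 0.986 and 0.941).

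**Figure D2:**
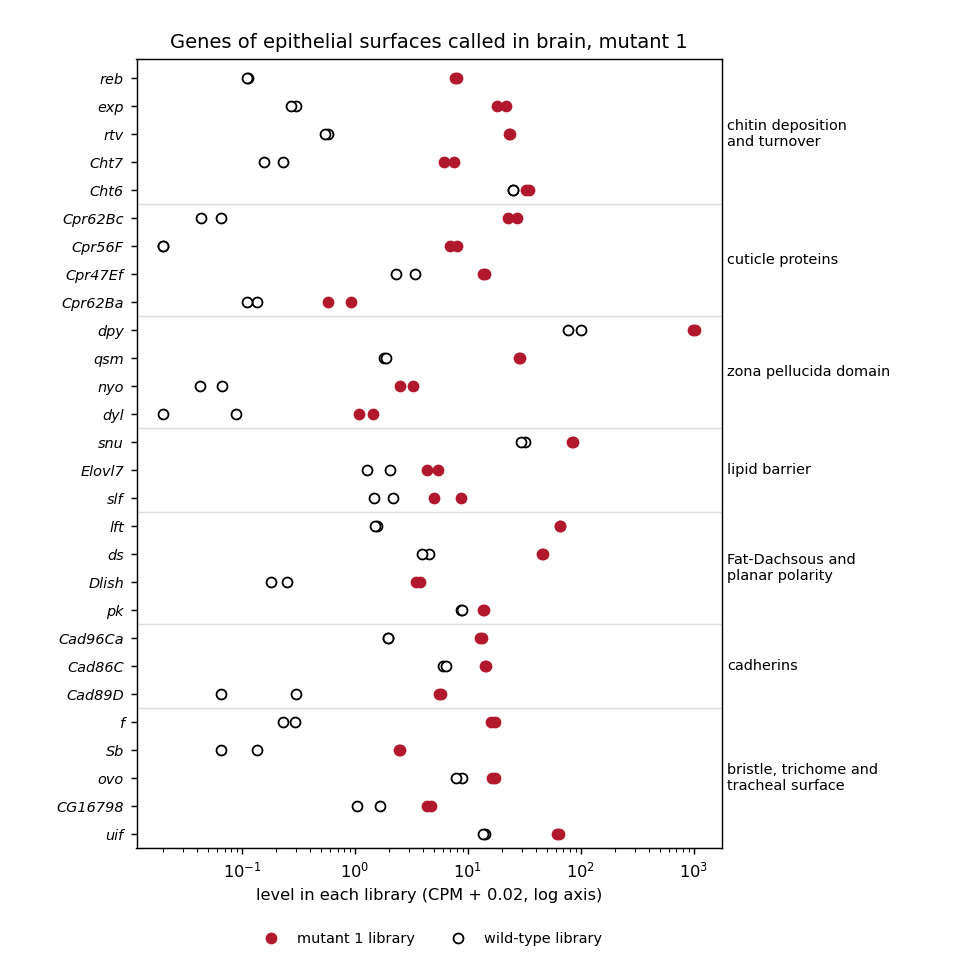
Level of each of the 28 called surface genes in each library (CPM plus 0.02, log axis), with mutant 1 libraries as filled red circles and wild-type libraries as open circles. In every gene both mutant 1 libraries lie to the right of both wild-type libraries, with narrow gaps for Cht6 and pk and the widest for Cpr62Bc and Cpr56F. The genes are shown because they were called, and this order holds in all 188 higher genes and in 22.3% of all tested genes.

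The Fat-Dachsous pathway uses giant cadherins to orient cells and limit growth. Of 14 tested genes of this pathway and of planar polarity, 4 rose and 0 fell. lft, whose product stabilises Fat and Dachsous, had 64.7 and 65.7 CPM in mutant 1 and 1.53 and 1.48 CPM in wild type (log2 5.44 ± 0.08, edgeR adjusted p = 1.47e-09). ds, the gene of the ligand Dachsous, had 46.5 and 45.3 CPM in mutant 1 and 4.47 and 3.94 CPM in wild type (3.45 ± 0.08, edgeR adjusted p = 3.67e-08). Dlish, a partner of the myosin Dachs, had 3.42 and 3.77 CPM in mutant 1 and 0.232 and 0.159 CPM in wild type (4.18 ± 0.23, edgeR adjusted p = 1.11e-05). Replicates agreed closely in all 3. The core polarity gene pk had 13.5 and 13.9 CPM in mutant 1 and 8.65 and 8.76 CPM in wild type (0.66 ± 0.08, edgeR adjusted p = 0.00261). The receptor gene ft had 4.60 and 4.78 CPM in mutant 1 and 3.25 and 3.66 CPM in wild type and did not pass (edgeR adjusted p = 0.199). Fbxl7, outside the list and known to act downstream of Fat, had 15.5 and 13 CPM in mutant 1 and 3.59 and 3.09 CPM in wild type (2.10 ± 0.14, edgeR adjusted p = 4.09e-05). Of 11 Hippo pathway genes 0 were called (0 by DESeq2 and 0 at an unadjusted p under 0.05), beside 2.66% of all tested genes.

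Of 12 other cadherin genes, 3 rose and 0 fell. Cad96Ca, a receptor tyrosine kinase gene, had 13.3 and 12.7 CPM in mutant 1 and 1.95 and 1.96 CPM in wild type (log2 2.73 ± 0.10, edgeR adjusted p = 5.38e-07). Cad86C had 14.1 and 14.4 CPM in mutant 1 and 5.93 and 6.35 CPM in wild type (1.21 ± 0.09, edgeR adjusted p = 6.54e-05). Cad89D had 5.72 and 5.55 CPM in mutant 1 and 0.278 and 0.0455 CPM in wild type (5.10 ± 0.43, edgeR adjusted p = 0.00127), and its call was lost without mutant 2 library 1 (0.0589) or library 2 (0.0622). The neuronal cadherin gene CadN was level, at 1297 and 1286 CPM in mutant 1 and 1276 and 1257 CPM in wild type.

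Bristle and hair genes gave 4 higher calls among 14 tested and 0 lower calls. f (forked), whose product bundles actin in bristles, had 17.2 and 16 CPM in mutant 1 and 0.209 and 0.273 CPM in wild type (log2 6.09 ± 0.15, edgeR adjusted p = 3.78e-08). Sb (Stubble), a transmembrane serine protease gene, had 2.46 and 2.44 CPM in mutant 1 and 0.116 and 0.0455 CPM in wild type (4.88 ± 0.32, edgeR adjusted p = 3.41e-05). CG16798 had 4.32 and 4.73 CPM in mutant 1 and 1.65 and 1.02 CPM in wild type (1.76 ± 0.21, edgeR adjusted p = 0.0019). The balancer listed for the stock carries a mutation of Sb, and its part in the Sb level was not tested.

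The transcription factor genes grh and ovo were both called higher. grh (Grainyhead) had 53.8 and 53.8 CPM in mutant 1 and 4.17 and 4.55 CPM in wild type (log2 3.62 ± 0.07, edgeR adjusted p = 1.56e-08). ovo, whose product directs hair formation, had 17.3 and 16.2 CPM in mutant 1 and 8.90 and 7.83 CPM in wild type (1.00 ± 0.10, edgeR adjusted p = 0.000618). Both stand in a list of 10 epidermis markers, whose median log2 change was 0.0071 and of which the other 8 were not called, among them Ddc with 230 and 211 CPM in mutant 1 and 237 and 220 CPM in wild type. The summed level of the epidermis list was 579 and 567 CPM in mutant 1 and 527 and 505 CPM in wild type, with 0 members at 0 in every library. Of 7 tested trachea markers 1 rose, uif, an apical membrane protein gene, with 61.5 and 64.5 CPM in mutant 1 and 14 and 13.6 CPM in wild type (2.19 ± 0.10, edgeR adjusted p = 4.03e-06). The trachea list summed to 224 and 229 CPM in mutant 1 and 164 and 169 CPM in wild type, while its defining genes trh (42.8 and 45.5 CPM in mutant 1, 42.7 and 44.7 CPM in wild type) and btl (12.8 and 13.4 CPM in mutant 1, 13.6 and 12.2 CPM in wild type) were level. What part the number of such cells had in the surface genes was not tested.

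Several of the largest increases fell in no list. CG8172 had 19.8 and 24.6 CPM in mutant 1 and 0 counts in wild type, at least 643-fold higher (edgeR adjusted p = 0.000478). CG6431 had 5.11 and 5.65 CPM in mutant 1 and 0 counts in wild type, at least 156-fold higher (edgeR adjusted p = 2.26e-05). CG7432 had 24.3 and 22.7 CPM in mutant 1 and 0 and 0.0455 CPM in wild type, a ratio of 1023 (counting interval 283 to 8454; edgeR adjusted p = 6.47e-08). All 3 sat at or next to 0 in wild type. CG12607 (ratio 891, 160 to 35237), CG18641 (518, 92.5 to 20490.0) and cysu (396, 109 to 3272) followed the same pattern, with edgeR adjusted p of 1.13e-06, 2.13e-06 and 1.66e-06. CG8192 had 39.4 and 34.1 CPM in mutant 1 and 0.0927 and 0.0227 CPM in wild type (log2 9.25 ± 0.22, edgeR adjusted p = 7.56e-08). CG6026 had 43.5 and 43.7 CPM in mutant 1 and 0.185 and 0.137 CPM in wild type (8.06 ± 0.11, edgeR adjusted p = 1.47e-09). flz, a serine protease gene of the tracheal matrix, had 21.3 and 17.5 CPM in mutant 1 and 0.510 and 0.182 CPM in wild type (5.80 ± 0.31, edgeR adjusted p = 0.000278). Of the 188 higher genes 122 were in no list, and 76 carry only a CG or CR number.

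Genes that were already well expressed in wild type also rose. ImpE1, an ecdysone-inducible gene, had 107 and 106 CPM in mutant 1 and 23.9 and 25.6 CPM in wild type (log2 2.11 ± 0.06, edgeR adjusted p = 6.47e-08). blo, a transporter gene, had 145 and 159 CPM in mutant 1 and 54.9 and 56.3 CPM in wild type (1.45 ± 0.09, edgeR adjusted p = 2.64e-05). sas, which encodes an apical cell-surface protein, had 137 and 137 CPM in mutant 1 and 10.7 and 7.23 CPM in wild type (3.93 ± 0.18, edgeR adjusted p = 0.000319), and its call was lost without mutant 2 library 1 (0.0521) or library 2 (0.0535). baz (Bazooka), an apical polarity gene, had 188 and 188 CPM in mutant 1 and 137 and 129 CPM in wild type (0.50 ± 0.05, edgeR adjusted p = 0.00109). CG3168 had 417 and 441 CPM in mutant 1 and 291 and 300 CPM in wild type (0.54 ± 0.06, edgeR adjusted p = 0.00143). The cytoskeletal genes Myo10A (1.46 ± 0.08), IRSp53 (1.91 ± 0.07) and Hil (2.69 ± 0.07) were higher as well, with edgeR adjusted p of 1.36e-05, 3.38e-07 and 4.77e-08.

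Signalling genes were called in several pathways, mostly at low levels. The neurotrophin-like ligands of Toll receptors spz4 and NT1 were both called. NT1 had 4.58 and 5.34 CPM in mutant 1 and 0 and 0.0910 CPM in wild type (log2 6.67 ± 0.47, edgeR adjusted p = 0.000273). spz4 had 2.72 and 2.34 CPM in mutant 1 and 0.0464 and 0.0683 CPM in wild type (5.39 ± 0.29, edgeR adjusted p = 9.47e-06). They were the 2 called genes among 45 tested of Toll and Imd signalling (4.44%, beside 2.66% of all tested genes).

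Of 12 Notch pathway genes 3 rose and 0 fell (25.0% called, beside 2.66% of all tested genes), and both ligands were among them. Ser had 7.83 and 8.02 CPM in mutant 1 and 4.15 and 3.16 CPM in wild type (log2 1.12 ± 0.14, edgeR adjusted p = 0.00261). Delta had 8.85 and 8.67 CPM in mutant 1 and 4.91 and 4.69 CPM in wild type (0.87 ± 0.10, edgeR adjusted p = 0.00139). The target gene E(spl)mbeta-HLH had 4.32 and 3.57 CPM in mutant 1 and 2.25 and 2.02 CPM in wild type (0.89 ± 0.19, edgeR adjusted p = 0.0474) and lost its call without any 1 of the 4 mutant 1 and wild-type libraries (0.0832 to 0.347), with upper-quartile scaling (0.0528) and with a mean of at least 1 CPM (0.0508). The receptor gene N had 285 and 276 CPM in mutant 1 and 246 and 231 CPM in wild type and did not pass (edgeR adjusted p = 0.105).

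In BMP signalling 2 of 21 genes rose (9.52% called, beside 2.66% of all tested genes). cv-2, whose product binds BMPs, had 45.5 and 40.6 CPM in mutant 1 and 30.3 and 27.9 CPM in wild type (log2 0.56 ± 0.07, edgeR adjusted p = 0.00283). The ligand gene dpp had 16.7 and 19.9 CPM in mutant 1 and 12.3 and 13.1 CPM in wild type (0.53 ± 0.10, edgeR adjusted p = 0.031), a call lost without mutant 1 library 2 (0.227), wild-type library 1 (0.23) or wild-type library 2 (0.127). The ligand gene hh stayed under 1 CPM, with 0.581 and 0.338 CPM in mutant 1 and 0.0696 and 0.0910 CPM in wild type (2.48 ± 0.50, edgeR adjusted p = 0.0374). Its call was lost without mutant 1 library 1 (0.314), wild-type library 1 (0.262) or wild-type library 2 (0.194), and it was not called by DESeq2 (0.0882). The Wnt receptor gene fz3 had 4.72 and 3.82 CPM in mutant 1 and 2.20 and 2.39 CPM in wild type (0.89 ± 0.17, edgeR adjusted p = 0.0283), lost without mutant 1 library 1 (0.257), wild-type library 1 (0.196) or wild-type library 2 (0.128). The insulin receptor gene InR had 173 and 172 CPM in mutant 1 and 146 and 145 CPM in wild type (0.24 ± 0.05, edgeR adjusted p = 0.0474), lost without any 1 of the 4 mutant 1 and wild-type libraries (0.245 to 0.35), with RLE (0.0518) or upper-quartile scaling (0.0514), and with a mean of at least 1 CPM (0.0511).

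Metabolic and detoxification genes changed in both directions. Of 65 tested cytochrome P450 genes 4 rose and 2 fell (9.23% called, beside 2.66% of all tested genes). Cyp6g1, known for insecticide resistance, had 13.8 and 14.2 CPM in mutant 1 and 5.29 and 3.73 CPM in wild type (log2 1.64 ± 0.17, edgeR adjusted p = 0.00198). Cyp301a1, a cuticle P450 gene, had 7.16 and 7.66 CPM in mutant 1 and 4.10 and 4.37 CPM in wild type (0.81 ± 0.11, edgeR adjusted p = 0.00433). The oxidase gene Duox had 7.25 and 5.99 CPM in mutant 1 and 2.50 and 2.02 CPM in wild type (1.55 ± 0.15, edgeR adjusted p = 0.000559). The groups did not overlap in these 3 genes, as in 22.3% of all tested genes with both mutant 1 libraries above wild type. sut1 and sut2 are neighbouring sugar transporter genes. sut2 had 3.58 and 3.24 CPM in mutant 1 and 0.487 and 0.546 CPM in wild type (2.71 ± 0.19, edgeR adjusted p = 5.35e-05). Gnmt, which consumes S-adenosylmethionine, had 1.98 and 2.15 CPM in mutant 1 and 0.116 and 0.182 CPM in wild type (3.76 ± 0.28, edgeR adjusted p = 8.29e-05). Of 29 glutathione transferase genes 0 rose and 2 fell (6.9% called). The neighbours GstD3 and GstD5 belong to a cluster of similar genes whose reads may have been split. GstD3 had 12.5 and 13.6 CPM in mutant 1 and 23.3 and 23.7 CPM in wild type (-0.84 ± 0.09, edgeR adjusted p = 0.000987). GstD5 stayed under 1 CPM, at 0.0232 and 0.0483 CPM in mutant 1 and 0.301 and 0.319 CPM in wild type (edgeR adjusted p = 0.0477), and lost its call without any 1 of the 6 brain libraries (0.0738 to 0.361), with no filter (0.0525) and by DESeq2 (0.271).

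Antimicrobial peptide genes were mostly higher in mutant 1 but varied widely between its libraries. Of 25 tested antimicrobial peptide genes 24 had a positive log2 change (median 2.6). edgeR called 1 of them, while DESeq2 called 11 higher and 0 lower, and 11 were higher at an unadjusted edgeR p under 0.05. The gene called by edgeR, BomT3, had 18.1 and 12.4 CPM in mutant 1 and 4.03 and 2.98 CPM in wild type (2.12 ± 0.22, edgeR adjusted p = 0.00522), and its call was lost without mutant 2 library 1 (0.115) or library 2 (0.128), and with only the 2 groups compared (0.0849). Mutant 1 library 1 was above mutant 1 library 2 in all 25 genes, and without library 1 the median was 1.1 (27 tested). Drs, for example, had 39.7 and 15 CPM in mutant 1 and 7.30 and 5.66 CPM in wild type (edgeR adjusted p = 0.472). The thioester protein genes Tep3 and Tep1, whose products resemble complement, moved in opposite directions. Tep3 had 56.9 and 59.2 CPM in mutant 1 and 11.6 and 10.9 CPM in wild type (2.37 ± 0.07, edgeR adjusted p = 7.56e-08). Tep1 had 4.14 and 3.55 CPM in mutant 1 and 9.69 and 9.17 CPM in wild type (-1.29 ± 0.12, edgeR adjusted p = 0.000479).

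Basement membrane, blood cell and scavenger receptor lists together gave 13 of the 75 lower calls. Of 19 basement membrane genes 8 fell and 0 rose (median log2 change -0.33), beside 0.759% lower calls over all genes. The laminin subunit genes fell together. LanA had 98.4 and 99.2 CPM in mutant 1 and 179 and 163 CPM in wild type (log2 -0.79 ± 0.06, edgeR adjusted p = 6.66e-05). LanB2 had 54.9 and 54.8 CPM in mutant 1 and 98.0 and 89.7 CPM in wild type (-0.78 ± 0.06, edgeR adjusted p = 0.00011). LanB1 had 48.2 and 47.9 CPM in mutant 1 and 75.4 and 70.0 CPM in wild type (-0.60 ± 0.06, edgeR adjusted p = 0.000629). All 3 were called without each library in turn, and the groups were well apart. The other alpha subunit gene, wb, was level at 19.6 and 22.9 CPM in mutant 1 and 21.0 and 20.9 CPM in wild type (edgeR adjusted p = 0.994).

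The collagen IV genes Col4a1 and vkg, which lie next to each other, fell by less. Col4a1 had 1112 and 1158 CPM in mutant 1 and 1648 and 1473 CPM in wild type (log2 -0.46 ± 0.07, edgeR adjusted p = 0.00654). Its call was lost without mutant 1 library 1 (0.107), mutant 1 library 2 (0.0545) or wild-type library 1 (0.0952). vkg had 815 and 858 CPM in mutant 1 and 1099 and 1011 CPM in wild type (-0.33 ± 0.07, edgeR adjusted p = 0.0344). The perlecan gene trol had 1559 and 1581 CPM in mutant 1 and 1980 and 2000 CPM in wild type (-0.34 ± 0.07, edgeR adjusted p = 0.0282). The calls of vkg (0.11 to 0.367) and trol (0.203 to 0.308) were lost without any 1 of the 4 mutant 1 and wild-type libraries. The same held for SPARC, a collagen-binding protein gene (main edgeR adjusted p = 0.0442, without a library 0.0507 to 0.277). Ppn, a matrix protein gene, was called at 0.0201 and lost without mutant 1 library 1 (0.173), mutant 1 library 2 (0.0579), wild-type library 1 (0.117), mutant 2 library 1 (0.153) or mutant 2 library 2 (0.167), and with only the 2 groups compared (0.162).

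Of 20 tested hemocyte markers 8 fell and 1 rose (median log2 change -0.41), and 3 of the 8 (Col4a1, vkg and Ppn) also stand in the basement membrane list. NimC1, a phagocytosis receptor gene of plasmatocytes, had 27.6 and 27.2 CPM in mutant 1 and 42.8 and 39.3 CPM in wild type (log2 -0.58 ± 0.07, edgeR adjusted p = 0.00131). Its relative NimC2 had 9.06 and 11.0 CPM in mutant 1 and 22.3 and 21.0 CPM in wild type (-1.11 ± 0.14, edgeR adjusted p = 0.00358). eater, also a phagocytosis receptor gene, had 12.1 and 10.2 CPM in mutant 1 and 21.7 and 18.1 CPM in wild type (-0.83 ± 0.12, edgeR adjusted p = 0.00543), lost without mutant 1 library 2 (0.0508). Hml, a clotting protein gene, had 270 and 281 CPM in mutant 1 and 428 and 368 CPM in wild type (-0.53 ± 0.07, edgeR adjusted p = 0.00522). Its call was lost without mutant 1 library 1 (0.0678), mutant 2 library 1 (0.0502) or mutant 2 library 2 (0.0558), and with only the 2 groups compared (0.054). The marker that rose was atilla, a lamellocyte antigen gene, with 11.9 and 13.7 CPM in mutant 1 and 7.56 and 7.99 CPM in wild type (0.72 ± 0.10, edgeR adjusted p = 0.00613), lost without mutant 1 library 2 (0.0686) or wild-type library 1 (0.0547). crq, a macrophage receptor gene, had 89.2 and 88.7 CPM in mutant 1 and 94.5 and 95.1 CPM in wild type and did not pass (edgeR adjusted p = 0.673). The list summed to 3698 and 3870 CPM in mutant 1 and 5393 and 4770 CPM in wild type, with 0 members at 0 in every library. A large part of this sum came from Col4a1 and vkg, the collagen IV genes given above. Whether fewer attached blood cells had a part was not tested.

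**Figure D3:**
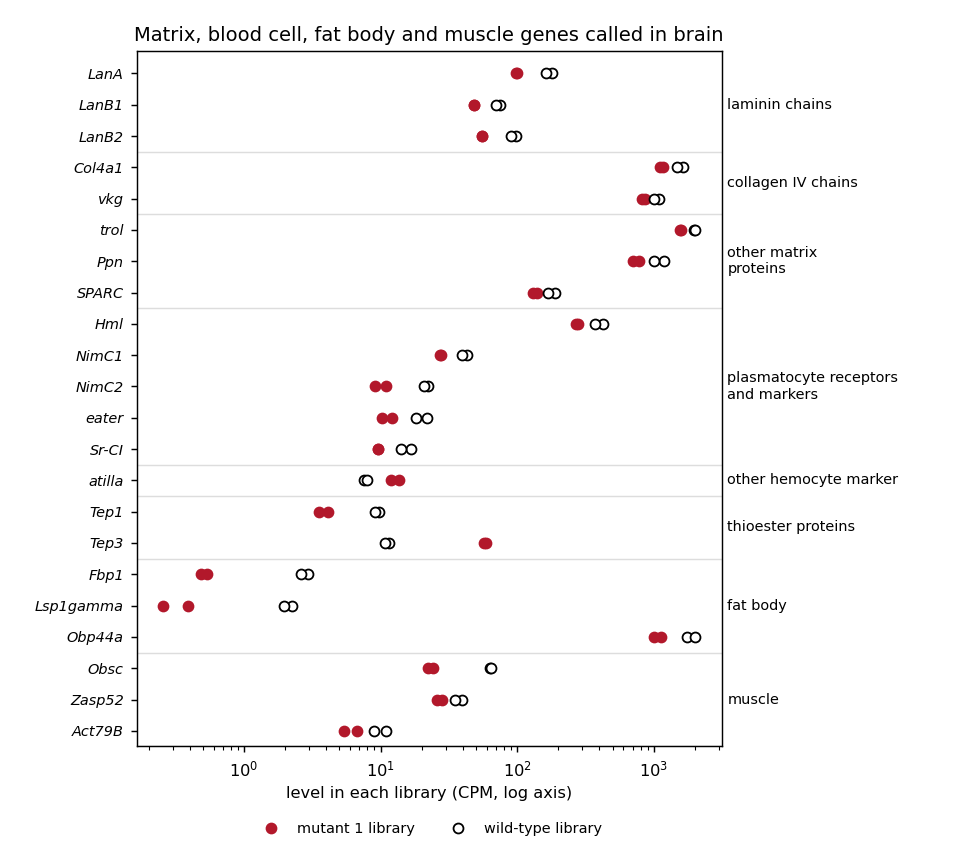
Level of blood cell and basement membrane genes in each library (CPM, log axis), mutant 1 as filled red circles and wild type as open circles. LanA, LanB2, LanB1, NimC1 and NimC2 show mutant 1 libraries left of wild-type libraries, whereas atilla shows the opposite order. The genes are shown because they were called. Mutant 1 libraries lie left of wild type in all 75 lower genes and in 21.2% of all tested genes.

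Fat body markers were lower in part, with 3 of 17 called (17.6%, beside 2.66% of all tested genes). Lsp1gamma, a storage protein gene, had 0.256 and 0.386 CPM in mutant 1 and 2.25 and 1.96 CPM in wild type (log2 -2.70 ± 0.29, edgeR adjusted p = 0.000907). Fbp1, a gene for the receptor of such proteins, had 0.534 and 0.483 CPM in mutant 1 and 2.92 and 2.59 CPM in wild type (-2.43 ± 0.22, edgeR adjusted p = 0.000356). Obp44a, which brain glia also express, had 1005 and 1122 CPM in mutant 1 and 1760 and 1999 CPM in wild type (-0.82 ± 0.12, edgeR adjusted p = 0.0142), lost without mutant 1 library 1 (0.0828), mutant 2 library 2 (0.0501) or wild-type library 2 (0.0532). The yolk protein genes did not pass, for example Yp1 with 5099 and 4114 CPM in mutant 1 and 7225 and 5393 CPM in wild type (edgeR adjusted p = 0.5). The list summed to 19773 and 16475 CPM in mutant 1 and 26711 and 21070 CPM in wild type, and its part in these results was not tested.

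Of 25 muscle markers 3 fell and 0 rose (12.0% called, beside 2.66% of all tested genes). The median log2 change over the list was 0.027. Obsc, a giant kinase gene of the sarcomere, had 22.3 and 24.3 CPM in mutant 1 and 63.4 and 64.7 CPM in wild type (log2 -1.46 ± 0.11, edgeR adjusted p = 0.000449). Mhc, the muscle myosin gene, had 93.5 and 59.6 CPM in mutant 1 and 88.6 and 75.2 CPM in wild type (edgeR adjusted p = 0.994). Zasp52 (edgeR adjusted p = 0.0139) lost its call without mutant 1 library 2 (0.127) or wild-type library 1 (0.128), and Act79B (0.0359) without mutant 1 library 1 (0.314), mutant 1 library 2 (0.0555) or wild-type library 2 (0.282).

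Lower genes outside the lists included CG7509, with 62.5 and 60.4 CPM in mutant 1 and 103.8 and 113 CPM in wild type (log2 -0.82 ± 0.07, edgeR adjusted p = 0.00014). Jhbp3, named for juvenile hormone binding, had 2.04 and 3.07 CPM in mutant 1 and 6.93 and 8.96 CPM in wild type (-1.64 ± 0.21, edgeR adjusted p = 0.00413). CG8012 had 9.62 and 10.1 CPM in mutant 1 and 16.7 and 15.8 CPM in wild type (-0.73 ± 0.08, edgeR adjusted p = 0.00152). These 3 were called without each library in turn. Lower calls were in general less stable: 28 of the 75 were lost without any 1 of the 4 mutant 1 and wild-type libraries, and 34 of the 188 higher calls were.

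Neuronal lists held few calls. Over 12 neuronal lists (neuron core genes, synapse, channels, transmitters, receptors, neuropeptides, axon guidance, adhesion families, memory genes) 312 genes were tested, of which 0 rose and 3 fell by edgeR (0.962%), beside 1.9% higher and 0.759% lower calls over all tested genes. At an unadjusted p under 0.05 there were 7 higher and 14 lower genes, and DESeq2 called 1 higher and 4 lower. The pan-neuronal gene elav had 643 and 630 CPM in mutant 1 and 635 and 612 CPM in wild type (log2 0.03 ± 0.08). brp, a scaffold gene of the active zone, had 2127 and 2035 CPM in mutant 1 and 2126 and 2044 CPM in wild type (-0.00 ± 0.08). The sodium channel gene para had 1802 and 1749 CPM in mutant 1 and 1760 and 1676 CPM in wild type (0.05 ± 0.06). In these genes the libraries of both genotypes overlapped or lay next to each other, and the log2 changes of 28 synaptic genes ran from -0.04 to 0.09.

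The 3 lower neuronal genes were a receptor subunit, a peptide receptor and an insulin-like peptide. nAChRbeta3, a nicotinic receptor subunit gene, had 14.5 and 14.5 CPM in mutant 1 and 23.4 and 21.2 CPM in wild type (log2 -0.62 ± 0.08, edgeR adjusted p = 0.00358). SPR, the sex peptide receptor gene, had 106 and 109 CPM in mutant 1 and 143 and 144 CPM in wild type (-0.41 ± 0.05, edgeR adjusted p = 0.00365), lost without mutant 1 library 1 (0.0634). Ilp5, made by the insulin-producing cells, had 61.5 and 62.2 CPM in mutant 1 and 74.5 and 78.1 CPM in wild type (-0.30 ± 0.05, edgeR adjusted p = 0.0158), lost without any 1 of the 4 mutant 1 and wild-type libraries (0.0781 to 0.203). Ilp2, from the same cells, had 147 and 137 CPM in mutant 1 and 166 and 154 CPM in wild type and did not pass (edgeR adjusted p = 0.336).

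Of 23 glia markers 2 rose and 1 fell, beside 1.9% higher and 0.759% lower calls over all tested genes. All these calls had log2 changes under 0.5 in size. The median log2 change over the list was -0.0052, and 10 of the 23 markers were positive. DESeq2 called 2 higher and 2 lower. CG10702 was 1 of the 2 that rose (edgeR adjusted p = 0.00606 with RLE scaling). Its call was lost without mutant 1 library 1, mutant 1 library 2 or wild-type library 2. Of the markers called by edgeR, levels are given below only for the 1 that fell. nrv2, a sodium pump subunit gene, had 1105 and 1125 CPM in mutant 1 and 1337 and 1427 CPM in wild type (log2 -0.31 ± 0.06, edgeR adjusted p = 0.0374), lost without any 1 of the 4 mutant 1 and wild-type libraries (0.142 to 0.43). repo, the pan-glial transcription factor gene, had 253 and 256 CPM in mutant 1 and 230 and 242 CPM in wild type (edgeR adjusted p = 0.637). Endocrine glands attached to the brain gave 2 higher calls among 3 markers, beside 2.66% of all tested genes called. All 3 had positive log2 changes (1.01 to 1.26), and DESeq2 called 3 higher. The third marker, Akh, was not called by edgeR. jhamt, an enzyme gene of juvenile hormone synthesis, had 2.74 and 3.26 CPM in mutant 1 and 1.32 and 1.66 CPM in wild type (1.01 ± 0.19, edgeR adjusted p = 0.0258), lost without mutant 1 library 1 (0.0689), mutant 1 library 2 (0.169), wild-type library 1 (0.193) or wild-type library 2 (0.0599). Lst, a peptide hormone gene, had 5.88 and 4.25 CPM in mutant 1 and 2.41 and 1.82 CPM in wild type (1.26 ± 0.20, edgeR adjusted p = 0.00943), lost without mutant 1 library 1 (0.0719) or wild-type library 2 (0.0866). That marker list summed to 20.6 and 17 CPM in mutant 1 and 6.98 and 10.6 CPM in wild type, and the amount of gland tissue in the pools was not tested.

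**Figure D4:**
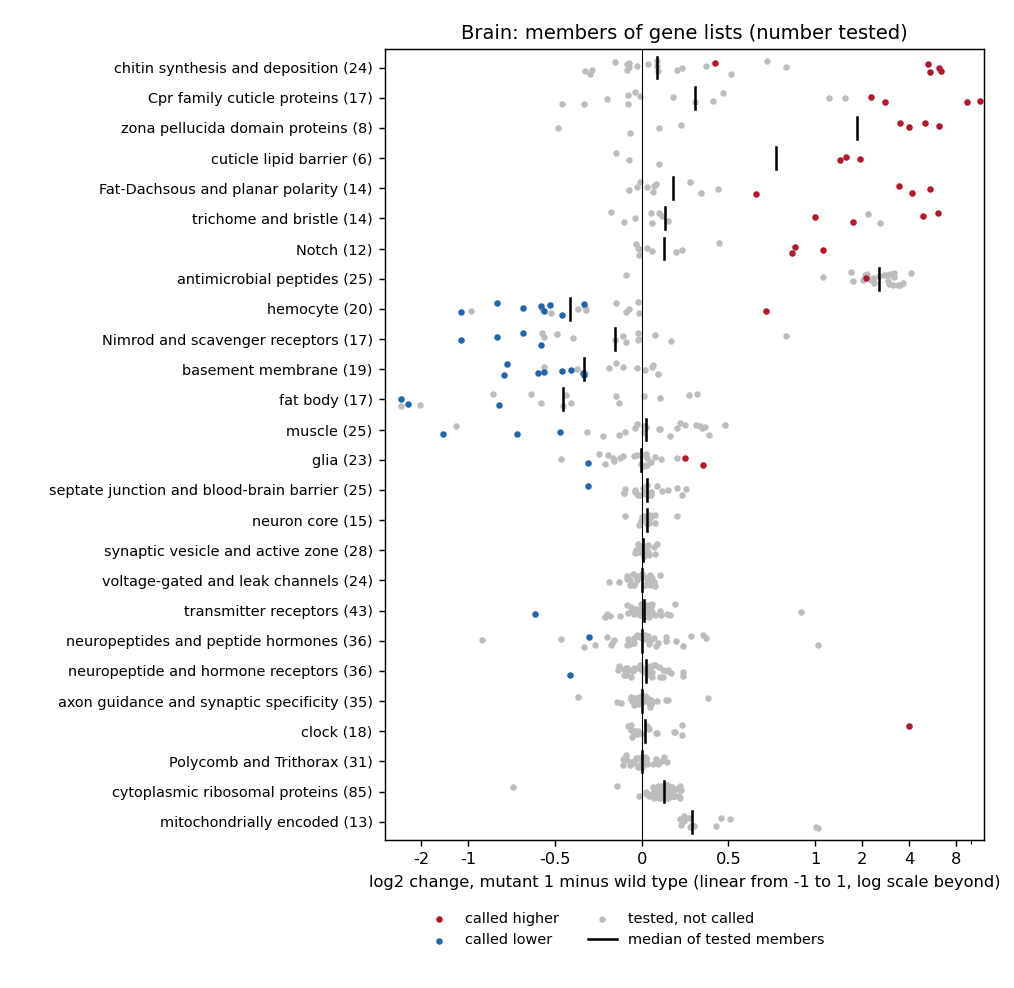
Log2 changes (mutant 1 minus wild type) of the tested members of 26 gene lists, with a black bar at each median; the axis is linear from -1 to 1 and logarithmic beyond. Surface lists have members far to the right. The medians of the basement membrane and hemocyte lists lie left of 0, and those of neuronal lists lie close to 0. Single members reach further, from -0.92 to 1.05 among neuropeptides and up to 0.72 among hemocyte markers.

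Ribosomal, mitochondrial and chromatin lists gave 0 edgeR calls, beside 2.66% of all tested genes. At that share, lists of these sizes would hold few calls. Of 85 cytoplasmic ribosomal protein genes 82 had a positive log2 change, with a median of 0.13 and 0 calls (lowest edgeR adjusted p = 0.083; 17 higher at an unadjusted p under 0.05, 5 higher by DESeq2). All 13 mitochondrially encoded genes were positive with a median of 0.29 and 0 calls (lowest 0.52; 1 higher at an unadjusted p under 0.05, 0 by DESeq2). In both lists library 1 was above library 2 in most genes of both genotypes (70 and 72 of 85, and 13 and 13 of 13). Over 4 chromatin lists, which hold Polycomb, H3K9 methylation, insulator and histone genes, 97 genes were tested and 0 were called by edgeR (1 higher and 0 lower at an unadjusted p under 0.05, 1 higher by DESeq2). The heat shock gene Hsp70Aa was high in library 2 of both genotypes, with 32.1 and 147 CPM in mutant 1 and 25.9 and 188 CPM in wild type (edgeR adjusted p = 0.994).

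Around CG11247 itself 0 of 51 tested genes within 250 kb were called, beside 2.66% of all tested genes. Within 500 kb 1 of 81 was, Act79B. Called genes were spread over the large arms, with higher calls from 1.53% of tested genes on 3L to 2.38% on 3R and lower calls from 0.547% on X to 0.951% on 2L and on 3L. The 76 tested genes of chromosome 4 held 0 calls. At 2.66%, sets of 51 or 76 genes would hold few calls. Adjacent called genes formed 14 pairs of higher genes, such as reb with exp and sut1 with sut2, and 3 pairs of lower genes, such as vkg with Col4a1.

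Mutant 1 and mutant 2 were compared directly in the same fit, since each against wild type shares the wild-type libraries. Of 9880 genes 4 (0.0405%) were called, and 101 higher and 140 lower genes had an unadjusted p under 0.05. CG11247 had 66.4 and 65.4 CPM in mutant 1 and 109.8 and 103 CPM in mutant 2 (log2 -0.69 ± 0.06, edgeR adjusted p = 0.00744). CBP had 23.3 and 24.5 CPM in mutant 1 and 11.8 and 13.2 CPM in mutant 2 (0.94 ± 0.09, edgeR adjusted p = 0.0214), with 1.62 and 1.46 CPM in wild type. CG13875 had 1.86 and 1.98 CPM in mutant 1 and 0.513 and 0.406 CPM in mutant 2 (2.05 ± 0.24, edgeR adjusted p = 0.0475). CG14861 had 0 counts in mutant 1 and 1.38 and 1.07 CPM in mutant 2, at least 34.8-fold lower (edgeR adjusted p = 0.0475), and 0 counts in wild type.

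These calls depended on single libraries. Without mutant 1 library 1 there were 0 calls by edgeR (66 higher and 138 lower genes at an unadjusted p under 0.05), and adjusted p was 0.108 for CG11247, 0.131 for CBP, 0.241 for CG13875 and 0.172 for CG14861. Without mutant 1 library 2 the adjusted p was 0.105 for CBP, 0.155 for CG13875 and 0.0843 for CG14861, and 12 genes were called. Without mutant 2 library 1 there were 80 calls. CG13875 and CG14861 also lost their calls without mutant 2 library 2 (0.104 and 0.0611), wild-type library 1 (0.159 and 0.0524) or wild-type library 2 (0.172 and 0.0578), and calls numbered 2 without either wild-type library. With the low number of calls, p-values that miss the threshold do not show that the alleles act alike.

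sordd2 (FBgn0052581, on X) was singled out after its values were seen. It had 0 counts in both mutant 1 libraries, 18 and 9.45 CPM in mutant 2 libraries and 54.2 and 56.9 CPM in wild-type libraries. Wild type held 4838 counts in all, so sordd2 was at least 1564-fold lower in mutant 1. It was not called when all 6 brain libraries were fitted together (edgeR adjusted p = 0.0924), but it was with only the 2 groups (6.9e-10), without mutant 2 library 1 (5.64e-10) or library 2 (5.84e-10), and by DESeq2 (4e-17). Its neighbour sordd1, a similar gene with which it could share reads, had 77.1 and 75.3 CPM in mutant 1 and 76.7 and 76.9 CPM in wild type. Whether a strain difference at this locus had a part was not tested. Mutant 1 ovaries also held 0 CPM in each of 3 libraries, against 25.5, 28.2 and 23.8 CPM in wild-type ovaries (edgeR adjusted p = 0.005).

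The same allele was measured in ovary with libraries of its own. There, 1953 of 8312 genes (23.5%) were called, 1018 higher (12.2%) and 935 lower (11.2%). Ovary calls fell to 1038 without mutant 1 library 3, 1163 without wild-type library 1 and 996 without wild-type library 2. Of 7919 genes tested in both tissues, 152 were higher in brain and 931 in ovary, and 97 were higher in both. That is 63.8% of the brain genes, beside 11.8% of all shared genes that were higher in ovary. It is 10.4% of the ovary genes, beside the 152 of all 7919 shared genes that were higher in brain. For lower genes, 11 were lower in both, 25.6% of 43 brain genes, beside 11.3% of all shared genes that were lower in ovary. The 11 were 1.22% of 898 ovary genes, beside the 43 of all 7919 shared genes that were lower in brain. Leaving out ovary libraries in turn gave 89 to 99 shared higher genes and 8 to 12 shared lower genes. Without any 1 of the mutant 1 and wild-type brain libraries, fewer genes were called in brain in each direction, and fewer were shared with ovary. Without mutant 2 library 1 or 2 more genes were called in brain in each direction, and more were shared.

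Surface genes were among those higher in both tissues. In ovary the log2 change was 8.43 for rtv (edgeR adjusted p = 2.79e-11), 7.10 for lft (4.33e-12), 4.36 for dpy (1.31e-08), 4.47 for ds (4.33e-12) and 3.49 for grh (4.47e-06). Others differed between the tissues in size: uif changed by 9.34 in ovary (1.95e-12) and 2.19 in brain, and CBP by 0.28 in ovary (0.0259) and 3.95 in brain, differences that were not tested. The laminin genes were lower in ovary too, by log2 -0.67 for LanA (0.00747), -0.62 for LanB2 (0.00392) and -0.64 for LanB1 (0.02).

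**Figure D5:**
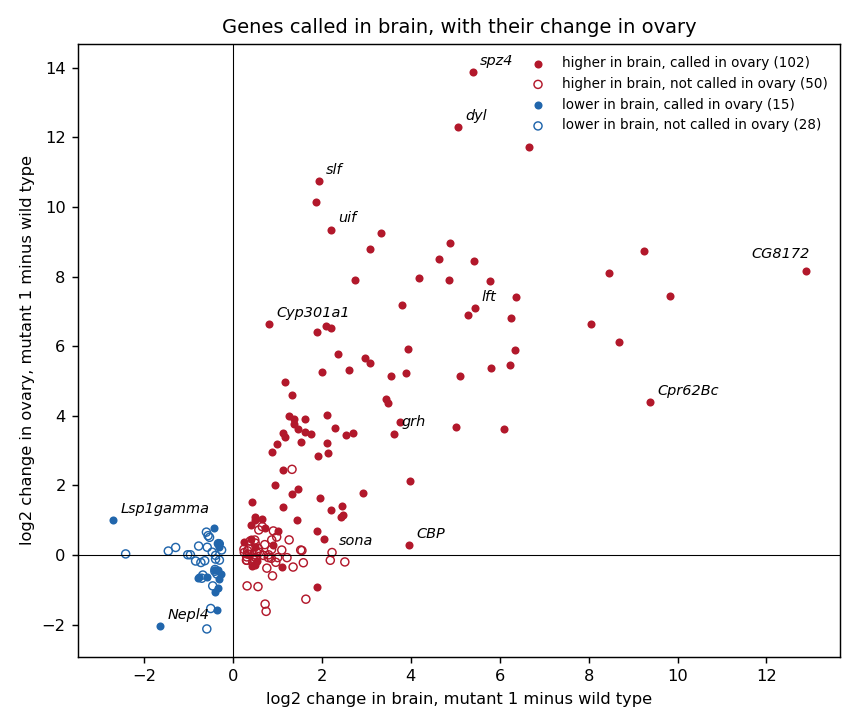
Log2 change (mutant 1 minus wild type) in ovary against that in brain for the 195 genes called in brain and tested in ovary. Of the 152 genes higher in brain 102 were called in ovary (97 higher, 5 lower), and of the 43 lower in brain 15 were called in ovary (11 lower, 4 higher).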

How the data were processed

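The authors deposited brain and ovary values as unscaled estimated counts, in a table of 13955 genes per tissue; 9.73% (brain) and 7.31% (ovary) of values were not whole. Reads were trimmed with Trim Galore 0.6.2 and quantified with Salmon 1.2.1, with build dm3 named, per the submitters' processing notes. Other tables of the series were not used here, and 0 value columns lacked a sample. Of the 13955 identifiers, 13661 matched the BDGP6 annotation by ID, 132 by symbol, 60 by locus tag and 84 by synonym, and 18 stayed unmatched. That annotation gave names, arms and positions.

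Estimated counts were rounded and tested with edgeR 4.0.16 in R 4.3.3 (quasi-likelihood F test, robust dispersions, TMM scaling, filterByExpr), with all 6 brain libraries in 1 fit without a replicate term and all 9 ovary libraries in another. Genes with a Benjamini-Hochberg adjusted p under 0.05 were called. The SE of a log2 change is its size divided by the square root of F. Depth was 39.0 to 45.6 M counts in brain and 14.1 to 21.5 M in ovary. Folds against 0 counts use a floor of 3 counts over the group. Ratios against 1 to 3 counts carry 95% exact intervals, which cover counting error only. Replicates correlated at 0.9911 (mutant 1) and 0.9916 (wild type) on the log scale and differed beyond counting noise (chi-square over its degrees of freedom 14.9 and 13.6), so none was a duplicate. The procedure was tested on simulated data.

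The members and the 96 gene lists were chosen with earlier results of these data known. Named genes were CG11247, up to 4 called members per list (else up to 2 abundant ones), the 10 largest changes per direction outside the lists (at least 5 CPM), the 10 smallest p per direction among genes of at least 20 CPM, genes called between the mutants, and neighbours of CG11247. Not every gene that met these rules is described. Other named genes were chosen after their values were seen. Alternatives were RLE and upper-quartile scaling, no filter, a mean of at least 1 CPM, unrounded counts, a replicate block, DESeq2 1.42.0, only the 2 groups compared, and each library left out.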

Additional observations from a re-analysis of the deposited data

Results flagged for a closer look

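Differences between the alleles in brain were flagged because the direct contrast passed the test. The log2 change (mutant 1 minus mutant 2) was 0.94 for CBP, -0.69 for CG11247 and 2.05 for CG13875. CG14861 was at least 34.8-fold lower in mutant 1 than in mutant 2. Their edgeR adjusted p-values and the libraries they depend on are given with that comparison.

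Genes called in brain and called in the opposite direction in ovary, both mutant 1 minus wild type, were flagged as well, and the difference between the tissues was not tested. Lower in brain and higher in ovary were Lsp1gamma (ovary log2 change 1.0), CG6357 (0.77), Jheh2 (0.35) and CG42709 (0.23). Higher in brain and lower in ovary were CR14798 (-0.91), ec (-0.34), eEF1beta (-0.32), stl (-0.28) and Rtel1 (-0.16). Of these, ec, stl and Lsp1gamma were called in brain without each brain library in turn.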

How the results depend on the processing

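In brain, the 263 calls against wild type (188 higher, 75 lower) stayed within 1.5 times each count under the 8 settings of scaling, filter, rounding, replicate block, DESeq2 and groups fitted, except for 126 lower calls with only the 2 groups compared. Leaving out libraries gave 149 to 379 calls, 119 to 257 higher and 24 to 122 lower. None of the 263 genes changed sign in any alternative, and 96 higher and 14 lower genes were called in all 14. CG11247 ranged from -0.45 to -0.38 over left-out libraries. Between mutants, leaving out libraries gave 0 to 80 calls (0 to 23 higher, 0 to 57 lower), DESeq2 12 (6 and 6), the replicate block 7 (4 higher; without CG13875 and CG14861, edgeR adjusted p = 0.0526 each), only the 2 groups 1 higher, and a mean of at least 1 CPM 1 lower. In ovary, left-out libraries gave 996 to 2225 calls, 547 to 1184 higher and 449 to 1041 lower. The cause was not tested. The log difference between library 1 and library 2, compared over genes, correlated between groups. The correlation was 0.192 (mutant 1 and wild type), 0.045 (both mutants) and 0.063 (mutant 2 and wild type). The labels tie the library numbers to no shared day or pool, so pairing was not assumed. With 2 libraries per group it could not be settled. The replicate block gave 294 calls (207 higher and 87 lower) in brain against wild type and 1941 in ovary. It called 248 of the 263 genes; among the other 15 were slf (edgeR adjusted p = 0.0689), Ppn (0.0709), SPARC (0.0839), E(spl)mbeta-HLH (0.0666) and GstD5 (0.0628). With 2 libraries per group, genes near 1 count are limited by depth.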
